A study of Mus musculus with 53 samples.

Results

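The comparison asked whether the effect of cigarette smoke on gene expression in the mouse lung differed between 12 and 2 weeks of exposure. An effect of smoke was the mean log2 signal of smoke-exposed mice minus that of forced air mice taken at the same week. The effect at 12 weeks minus the effect at 2 weeks, here called the difference of effects, was tested for each of 15030 genes. It used 23 of the 53 arrays of the study, chosen by their group labels. They were 6 arrays of forced air and 6 of smoke at 2 weeks, and 6 of forced air and 5 of smoke at 12 weeks.

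All mice were female C57BL/6 mice with no transgene or other allele named. Smoke-exposed mice breathed 4% mainstream cigarette smoke through the nose in daily sessions of 2 hours, 5 days of each week, and forced air mice had sham sessions with air. RNA came from the small lobe of the lung and was measured on 1 Affymetrix array per sample. The label for age holds the time of exposure, so the true age of the mice is not given, but smoke and forced air were matched for time within each effect. The labels do not say whether each array came from its own mouse. The p-values thus measure the spread between arrays of a group, pooled over all 53 arrays of the study.

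Alveolar macrophages take up inhaled particles and spent surfactant lipid and break them down in lysosomes. When the lung is irritated for long, CC chemokines draw monocytes from the blood, and these become further macrophages in the air spaces and the interstitium. Long smoke exposure in mice is also known for lymphoid follicles around airways and vessels, where the chemokine CXCL13 gathers B cells.

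The arrays were alike in yield. Between 67.5% and 76.2% of probe sets were called present, and the median signal lay between 32.7 and 41.6. The tissue label was borne out by its markers: the surfactant gene Sftpc had a mean signal between 2768 and 3441 in the 4 groups, and the club cell gene Scgb1a1 between 3182 and 3711, and neither had a called effect at either duration or a called difference. RNA integrity was read from Gapdh probe sets at both ends of the transcript. Their 3′ to 5′ ratio lay between 1.61 and 2.08 with forced air and between 1.54 and 1.71 with smoke at 2 weeks. At 12 weeks it lay between 1.58 and 2.42 with forced air and between 1.48 and 1.54 with smoke. It was lower with smoke at 2 weeks (exact permutation test, two-sided, adjusted p = 0.013, n = 6 and 6) and at 12 weeks (exact permutation test, adjusted p = 0.0115, n = 6 and 5). When the Gapdh and actin ratios entered the model as covariates, all 331 genes called for the difference of effects remained called. In that fit 396 genes had a difference above 0 that was called and 286 one below 0. The 331 genes were chosen on the same arrays and the ratio differed with smoke, so this fit cannot tell smoke and RNA integrity apart.

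The effect of smoke was larger or more positive at 12 weeks in 223 genes (1.48% of those tested) and smaller or more negative in 108 (0.719%), by limma at a Benjamini-Hochberg adjusted p under 0.05. Together these were 331 genes, or 2.2%. An unadjusted p under 0.05 was reached by 2525 genes. Across all genes the median difference of effects was -0.01 on the log2 scale. In bulk tissue, a change in the number of cells of a type and a change in RNA per cell cannot be told apart.

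The 223 genes were mostly rises that grew. At 12 weeks 217 of them rose with smoke (12.5% of all genes rose), while 79 had already risen at 2 weeks (5.4% of all genes rose) and 6 had fallen. Their median effect was 0.19 at 2 weeks and 0.86 at 12 weeks. A called effect in either direction was found for 9.12% of all genes at 2 weeks and 23% at 12 weeks. Of the 108 genes, 99 fell at 12 weeks (10.5% of all genes fell), 5 had fallen at 2 weeks (3.72% of all genes fell) and 10 had risen there. Their median effect was 0.07 at 2 weeks and -0.41 at 12 weeks. The effects at 2 and 12 weeks are made of the same arrays as their difference, so these counts describe how the difference arose and do not add support to it. A difference of at least 1 in size on the log2 scale was seen in 35 of the higher genes and in 0 of the lower genes.

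**Figure D1:**
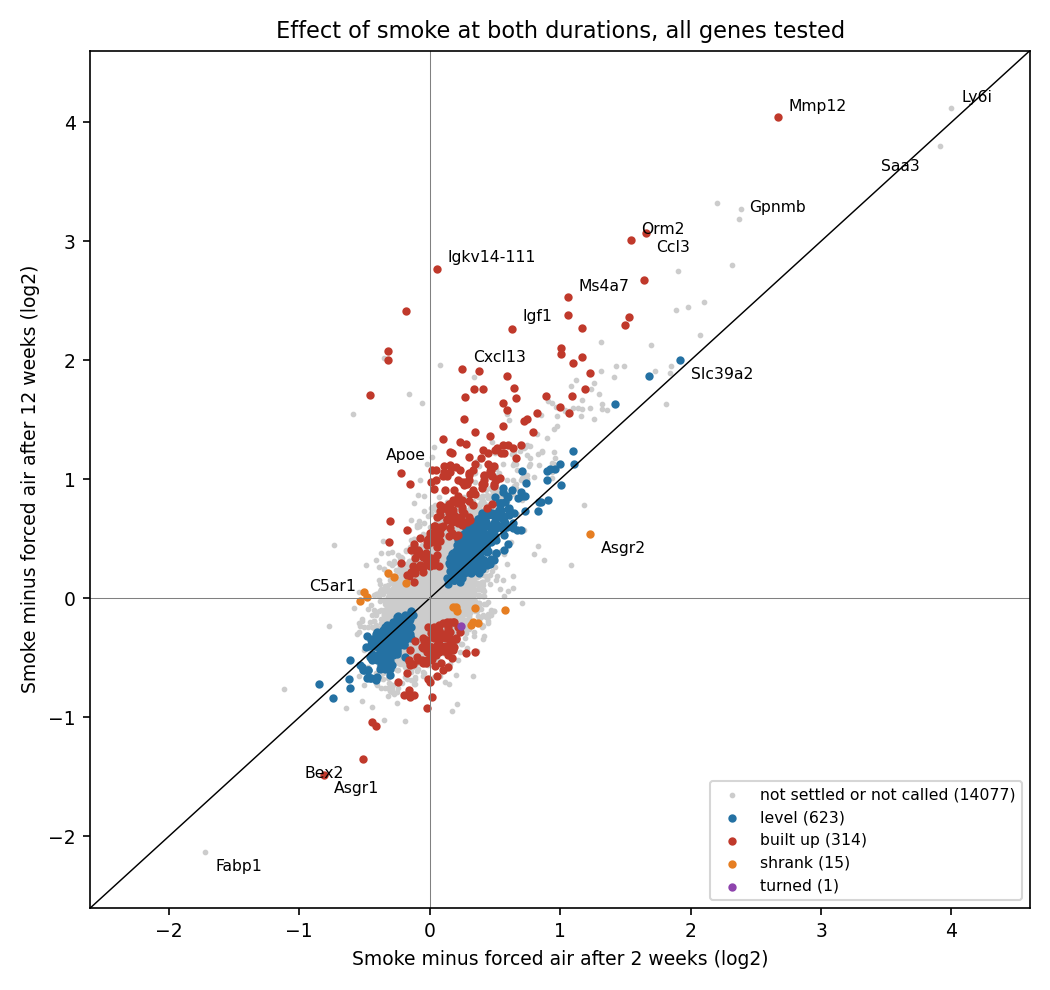
Each point is 1 of the 15030 genes, with its smoke effect at 2 weeks on the horizontal axis and at 12 weeks on the vertical axis, both as log2 smoke minus forced air. The line marks equal effects, colours mark the classes defined in the text, and the 314 genes whose effect built up lie away from the line and farther from 0 at 12 weeks.

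Both arms of the experiment could move. Between 2 and 12 weeks the smoke arm rose in 171 of the 223 higher genes (6.89% of all genes rose) and the forced air arm fell in 46 (3.65% of all genes fell) and rose in 2 (4.12%). In either direction, 9.99% of all genes changed in the smoke arm and 7.77% in the forced air arm. Both arms were called in 8 of the 223 and neither in 12. The change of the smoke arm was the larger in size in 175. All smoke arrays at 12 weeks lay above all smoke arrays at 2 weeks in 63.2% of the 223 genes, against 4.41% of all genes, and above all forced air arrays at 12 weeks in 190 of them, against 6.67%. All forced air arrays at 12 weeks lay below those at 2 weeks in 29, against 1.13%.

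The lower genes divided more evenly between the arms. Of the 108, the smoke arm fell in 52 (3.1% of all genes fell), the forced air arm rose in 38, both were called in 4 and neither in 22. The smoke arm changed by more in 64. All smoke arrays at 12 weeks lay below those at 2 weeks in 31 of the 108 genes, against 2.14% of all genes, and below all forced air arrays at 12 weeks in 66, against 4.2%. All forced air arrays at 12 weeks lay above those at 2 weeks in 13, against 1.12%.

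**Figure D2:**
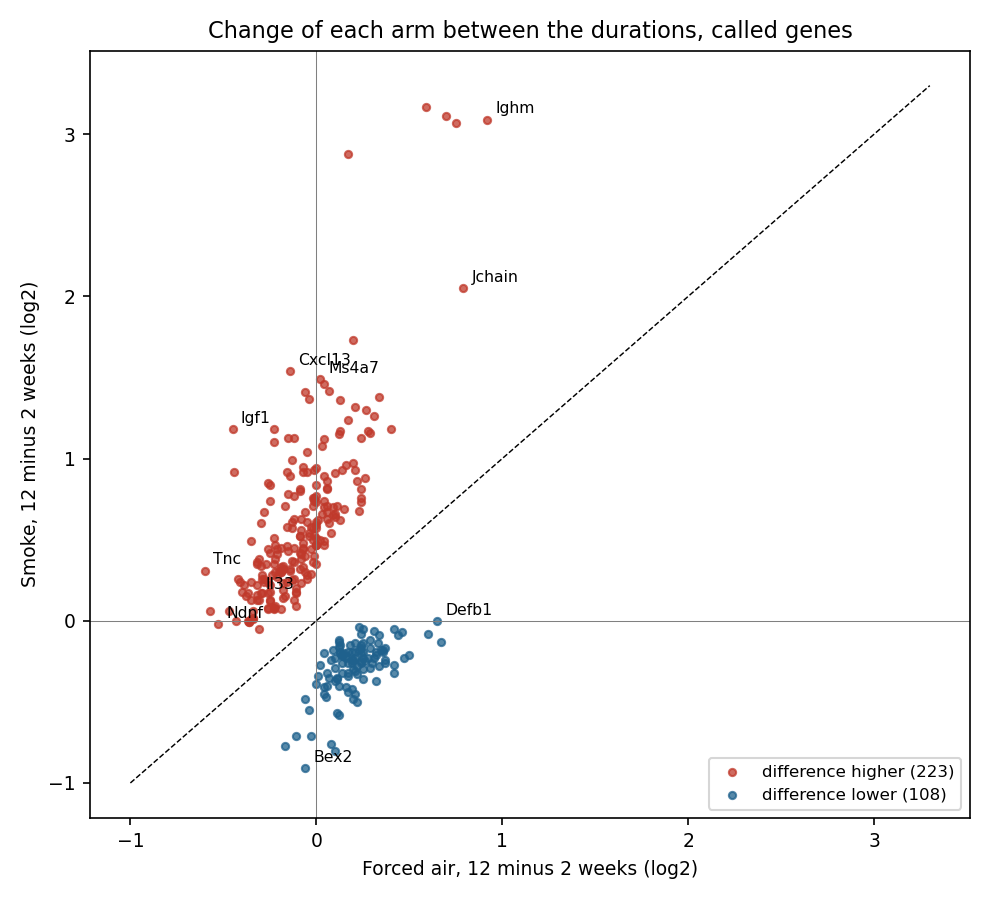
The 331 called genes are placed by the change of the forced air arm (horizontal axis) and of the smoke arm (vertical axis) from 2 to 12 weeks, in log2. Red points are the 223 higher and blue points the 108 lower genes. Most red points lie above 0 on the smoke axis, while blue points lie to the right of 0 on the forced air axis and below 0 on the smoke axis in nearly even measure.

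Genes of antibody-producing cells had the largest differences. Ighm, the constant region of the IgM heavy chain (Entrez gene 16019), had signals from 107.1 to 402.9 (mean 190.7) in forced air and from 51.7 to 186.5 (mean 128.2) in smoke at 2 weeks. At 12 weeks forced air ran from 152.1 to 843.1 (median 306.7) and the 5 smoke arrays read 555.0, 1247.2, 1273.5, 1444.7 and 1480.7. Every smoke array at 12 weeks lay above every smoke array at 2 weeks, and 4 of the 5 lay above every forced air array at 12 weeks. The difference of effects was 2.17 (SE 0.56, adjusted p = 0.0249), from -0.46 at 2 weeks, which was not called, to 1.71 at 12 weeks. The call was lost without forced air 2-week replicate 2, smoke 2-week replicate 2 or smoke 12-week replicate 1 or 5, with differences between 1.94 and 2.43 over all left-out arrays.

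The kappa light chain variable genes Igkv14-111, Igkv19-93, Igk-V21 and Igkv9-120 had differences of 2.71 (SE 0.58, adjusted p = 0.00438), 2.58, 2.41 and 2.32, and none was called at 2 weeks. Igkv14-111 ran from 25.8 to 72.2 in forced air and from 27.2 to 62.3 in smoke at 2 weeks, and from 32.2 to 108.4 in forced air at 12 weeks. Its smoke arrays at 12 weeks read 132.2, 384.6, 456.6, 672.8 and 879.3, all above the other 3 groups. These genes belong to a family of near-identical sequences, so which member the probes measured is uncertain.

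Jchain, whose product joins IgM and IgA units into polymers, rose in both arms between the durations, by 0.79 in forced air (adjusted p = 0.0174) and 2.05 in smoke. Its mean signal went from 513.1 ± 85.5 (SD, n = 6) to 979.3 ± 496.1 (n = 6) in forced air and from 440.2 ± 82.8 (n = 6) to 1877 ± 370.3 (n = 5) in smoke. The difference was 1.26 (SE 0.30, adjusted p = 0.0148). Forced air arrays at 12 weeks reached 1800 and so overlapped those of smoke, of which 3 of 5 lay above all of them.

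Cxcl13, the chemokine that draws B cells (Entrez gene 55985), followed the same course with tighter groups. It ran from 145.5 to 260.9 in forced air and from 184.7 to 286.4 in smoke at 2 weeks, and from 139.9 to 202.3 in forced air at 12 weeks. Its smoke arrays at 12 weeks read 455.2, 633.7, 698.6, 743.9 and 998.0. All 5 lay above the arrays of the other 3 groups, and the effect went from 0.25 (not called) to 1.93, a difference of 1.68 (SE 0.28, adjusted p = 0.000197).

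Ctla4, an inhibitory receptor of T cells, had a difference of 1.23 (SE 0.27, adjusted p = 0.00587), with a mean of 22.9 ± 3.9 in smoke at 2 weeks and 89.5 ± 43.4 at 12 weeks. Of 17 tested genes of lymphoid follicles, B and plasma cells 3 were higher (Ighm, Cxcl13 and Jchain), against 1.48% of all genes. All 17 had a difference above 0, with a median of 0.54. The effects of the list had medians of -0.22 at 2 weeks and 0.31 at 12 weeks, where 7 of the 17 rose (12.5% of all genes rose). The B cell genes Cd79a, Cd79b and Ms4a1 had effects of 0.15, 0.14 and 0.21 at 12 weeks and were called at neither duration. The summed signal of this list ran from 1352 to 2276 in smoke at 2 weeks and from 3861 to 7755 at 12 weeks, and in forced air from 1790 to 3587 at 2 weeks (median 2136) and from 2623 to 4826 at 12 weeks (median 3250). Of 15 tested genes of T and cytotoxic cells Ctla4 was the 1 gene called, and the median was 0.26.

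**Figure D3:**
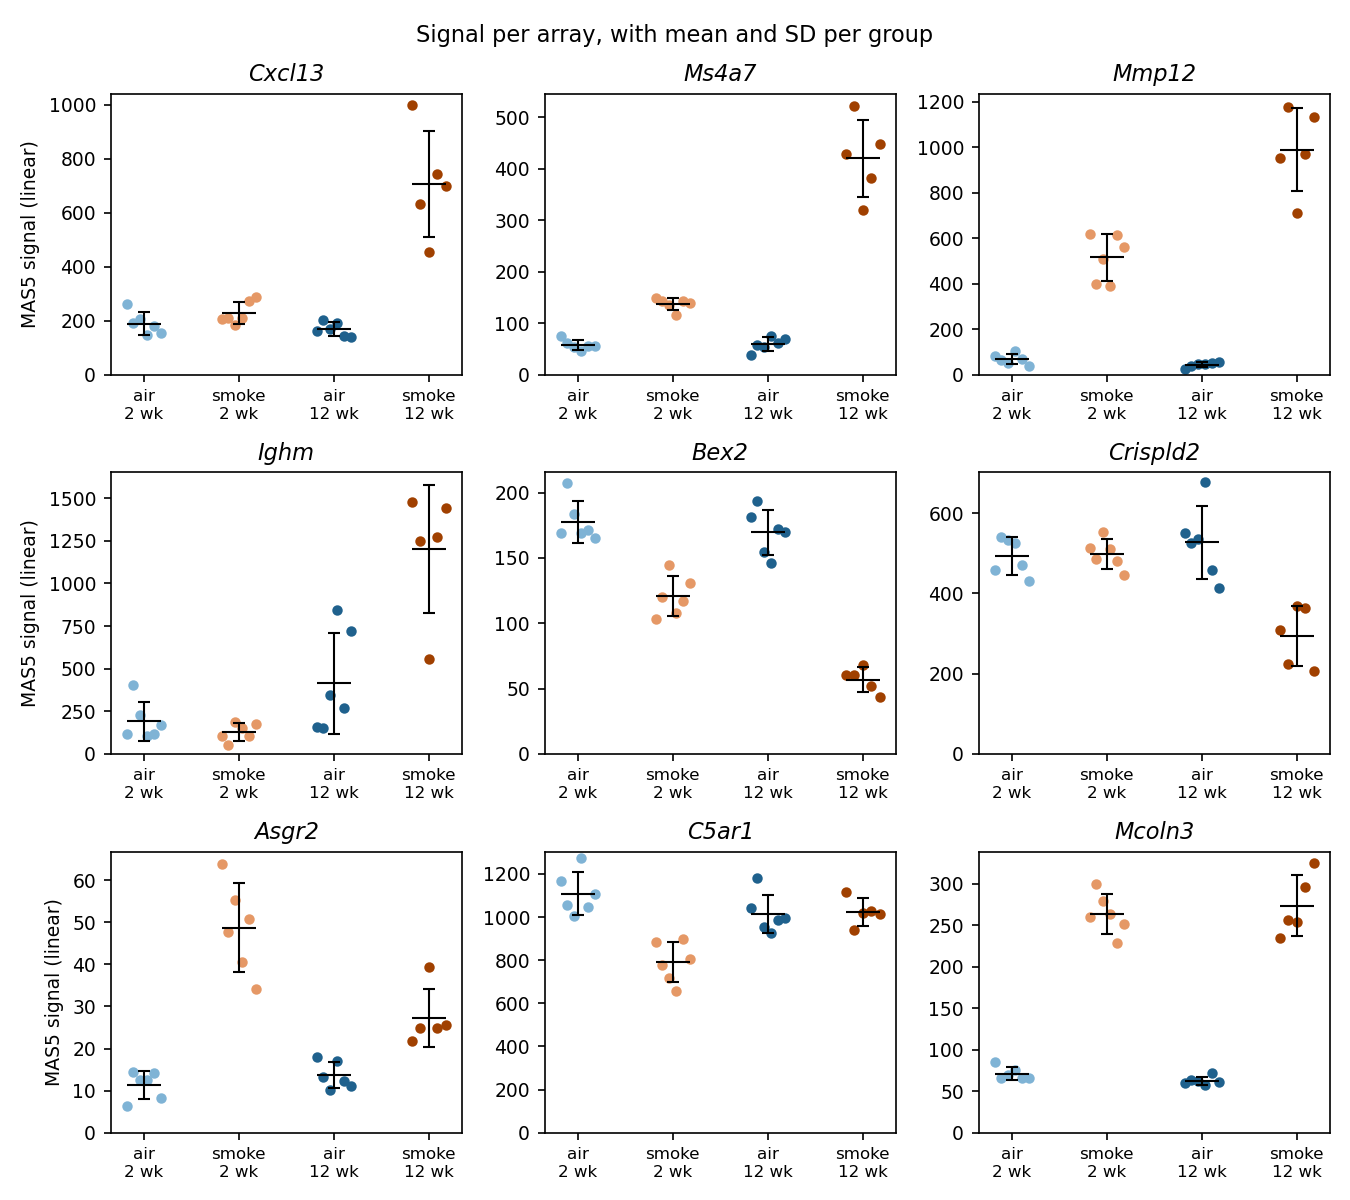
Each panel shows 1 gene, with the deposited MAS5 signal on a linear axis from 0 for every array of the 4 groups, the horizontal bar at the mean and the error bar at 1 SD. Cxcl13, Ms4a7, Mmp12 and Ighm show rises that built up, Bex2 and Crispld2 falls that built up, Asgr2 and C5ar1 effects that shrank, and Mcoln3 an effect that stayed level.

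Several markers of monocyte-derived and interstitial macrophages went beyond the level reached at 2 weeks. Ms4a7, a membrane protein of macrophages (Entrez gene 109225), ran from 45.8 to 74.5 in forced air and from 116.2 to 148.9 in smoke at 2 weeks, and from 38.8 to 75.4 in forced air at 12 weeks. The smoke arrays at 12 weeks read 319.2, 382.6, 428.2, 447.7 and 521.6. Both smoke groups were clear of forced air and did not overlap each other, and the effect went from 1.06 to 2.53 (difference 1.47, SE 0.21, adjusted p = 1.35e-05). Adgre1, a receptor that marks mature mouse macrophages, went from an effect of 0.56 to 1.45 (difference 0.89, SE 0.12, adjusted p = 5.11e-06) with the same separation of all groups.

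Fcgr1, the high-affinity receptor for IgG, was called only at 12 weeks of these durations (0.28 and 1.30, difference 1.02). For Folr2, a folate receptor of resident interstitial macrophages, the difference of 0.67 (SE 0.17, adjusted p = 0.0242) lay in the forced air arm, which fell by 0.42, while the smoke arm did not pass the test (0.26). Of 14 tested genes of this list 4 were higher (1.48% of all genes were higher) and none lower. The difference was above 0 in 11, with a median of 0.35. It was below 0 for Ccr2 (-0.11), Lyve1 (-0.10) and Cd163 (-0.18), which had no called effect at either duration. The effects of the list at 2 and 12 weeks had medians of 0.31 and 0.58.

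Some genes of lipid-laden macrophages also built up. Trem2, a lipid receptor (Entrez gene 83433), had a present call in 2 of 6 forced air arrays at 2 weeks and 0 of 6 at 12 weeks, with signals of at most 12.1. In smoke it ran from 34.8 to 44.6 at 2 weeks and read 56.9, 74.7, 89.8, 93.7 and 108.8 at 12 weeks. Smoke thus lay above forced air at both durations, and the smoke groups did not overlap. The difference of effects was 1.11 (SE 0.17, adjusted p = 6.29e-05), in which values of forced air near background are held up by the 16 added to each signal.

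Apoe, a carrier of cholesterol, showed no called effect at 2 weeks (0.11, adjusted p = 0.601) and rose by 1.11 at 12 weeks. It ran from 222.2 to 305.6 in smoke at 2 weeks and read 395.5, 482.8, 486.8, 503.5 and 623.4 at 12 weeks, with forced air between 177.1 and 302.2 at both durations. No smoke array at 12 weeks overlapped any other group. Msr1, a scavenger receptor for modified lipoproteins, went from an effect of 1.64 to 2.67 (difference 1.03, adjusted p = 0.00412).

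Mmp12, the macrophage elastase (Entrez gene 17381), had risen by 2.67 at 2 weeks and by 4.04 at 12 weeks. Its signals ran from 388.1 to 617.8 in smoke at 2 weeks and read 711.7, 953.0, 971.6, 1134 and 1179 at 12 weeks. Forced air ran from 39.9 to 103.6 and from 27.5 to 57.8. The smoke groups did not overlap, and the difference of 1.37 (SE 0.35, adjusted p = 0.0219) came from a rise of 0.92 in the smoke arm and -0.44 in the forced air arm, which was not called. Its call was lost without forced air 2-week replicate 4 or smoke 12-week replicate 5. In all, 6 of 19 tested genes of the lipid-laden list were higher (1.48% of all genes), with a median difference of 0.41. Gpnmb, a glycoprotein of lipid-laden cells, missed the threshold (0.82, SE 0.24, adjusted p = 0.0528).

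Of 14 alveolar macrophage genes 2 were higher (1.48% of all genes), the interleukin-1 receptor antagonist gene Il1rn (0.66) and the integrin gene Itgax (0.49). Itgax is also counted in the lipid-laden list and Il1rn in the acute phase and cytokine list. The median was -0.01, equal to that of all genes. Itgax was called in 8 of the 23 fits that left out 1 array. Marco, a scavenger receptor for unopsonized particles, had effects of 1.84 and 1.89, and its difference of 0.05 (SE 0.27) was not called. None of 10 genes of alternative activation was called, with a median of 0.10.

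Other genes among the largest differences have known roles in macrophages. Igf1, a growth factor that lung macrophages make, went from 0.63 to 2.26 (difference 1.63, SE 0.24, adjusted p = 2.56e-05). Its smoke arrays read 264.8, 365.3, 387.1, 389.9 and 401.9 at 12 weeks, against 120.9 to 178.4 at 2 weeks. Aoah, an enzyme that removes acyl chains from bacterial lipopolysaccharide, had the smallest adjusted p of the genes described here (difference 1.25, SE 0.15, adjusted p = 6.56e-07). It ran from 21.6 to 26.3 in smoke at 2 weeks and read 47.9, 70.1, 77.3, 81.8 and 89.4 at 12 weeks, with no overlap. Acod1, which makes itaconate, went from 0.41 (not called) to 1.76.

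Npy, the neuropeptide Y gene, was present on none of the 12 forced air arrays (0 of 6 at each duration). In smoke it was present on 4 of 6 arrays at 2 weeks, between 5.2 and 18.2, and read 36.5, 48.6, 53, 73.6 and 78.3 at 12 weeks. At 2 weeks smoke overlapped forced air, which reached 9.5, and the effect of 0.27 was not called. At 12 weeks no smoke array overlapped another group (effect 1.69, difference 1.41, SE 0.19, adjusted p = 5.86e-06).

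The CC chemokines, which call monocytes and other leukocytes from the blood, held the list with the highest median. Of 16 tested ligands and receptors 6 were higher (1.48% of all genes were higher) and none lower. The median difference was 0.56, the highest among 34 lists, whose medians went down to -0.36. Ccl2, a ligand of the monocyte receptor CCR2, had a mean of 70.9 ± 23.3 (SD, n = 6) with a lowest value of 50.4 in smoke at 2 weeks and read 108.3, 136.5, 176.2, 191.9 and 239.4 at 12 weeks, where 4 of 5 arrays lay above all earlier smoke arrays. Forced air ran from 12.1 to 27.1 over both durations. The effect went from 1.06 to 2.38 (difference 1.32, SE 0.28, adjusted p = 0.00383).

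Ccl8, which acts on CCR8 in mice, was not called at 2 weeks (0.38) and rose by 1.91 at 12 weeks. Its smoke arrays read 186.8, 252.1, 258.0, 265.0 and 409.0, and no other array of the 4 groups exceeded 86.6. The call of the difference (1.54, SE 0.41, adjusted p = 0.0342) was lost in 7 of 23 fits that left out 1 array, in which the difference stayed between 1.39 and 1.66. Ccl3 went from 1.66 to 3.07 and Ccl12 from 0.59 (not called) to 1.87.

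None of 7 tested CXC chemokines for neutrophils was called, and their median difference was 0.14. Cxcl5 had effects of 2.07 and 2.21, both called, and a difference of 0.14 (SE 0.51). None of 13 neutrophil granule genes was called either. Of these 13 genes 2 had risen at each duration, where 5.4% of all genes rose at 2 weeks and 12.5% at 12 weeks. The 2 chemokine lists were not tested against each other.

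Among 18 acute phase and cytokine genes 5 were higher (1.48% of all genes), with a median of 0.35. Orm2, an acute phase glycoprotein of plasma (Entrez gene 18406), was present on none of the 12 forced air arrays. It ran from 21.5 to 72.9 in smoke at 2 weeks and read from 104.6 to 169.1 with a median of 136.4 in the 5 arrays at 12 weeks, without overlap. The effects were 1.54 and 3.01 on the log2(signal + 16) scale. The difference was 1.46 (SE 0.26, adjusted p = 0.00049). Osm, a cytokine of the interleukin-6 family, was not called at 2 weeks (-0.17) and rose by 0.57 at 12 weeks. Its difference of 0.74 was called in 14 of the 23 fits that left out 1 array.

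Il33, an alarmin that alveolar type 2 cells hold in mice, rose by 0.68 at 12 weeks. Its smoke arm did not pass the test (0.16) and its forced air arm fell by 0.32, from a range of 636.0 to 803.4 to a range of 503.6 to 644.1. The acute phase gene Saa3 had effects of 3.91 and 3.80 and the Ly6 family gene Ly6i of 4.00 and 4.12, and neither difference was called. The 95% intervals of the difference, from -1.02 to 0.81 and from -0.81 to 1.04, were too wide to call the effects level.

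Complement genes built up in 5 of 12 cases, against 2.09% of all genes. Cfb, factor B of the alternative pathway (Entrez gene 14962), ran from 191.3 to 311.1 in smoke at 2 weeks and read 433.2, 459.8, 521.5, 542.8 and 565.5 at 12 weeks, with forced air between 91.4 and 119.9. C1qc, a subunit of the first component, ran from 190.0 to 270.4 and then read 368.7, 415.7, 439.2, 448.8 and 472.8. In both genes each smoke group was clear of forced air and of the other smoke group. The differences were 1.09 (adjusted p = 0.00587) and 1.03 (SE 0.17, adjusted p = 0.000239), and C1qa (0.76) and the receptor gene C3ar1 (0.86) were called too. C1qa stayed called in 13 of the 23 fits that left out 1 array, and lost its call when 1 was added to each signal in place of 16. The list's median was 0.49, and another higher gene, C5ar1, belongs to those that shrank.

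Some lysosomal enzymes grew as well. Of 26 tested lysosome genes 5 were higher (1.48% of all genes) and 24 had a difference above 0, with a median of 0.30 against -0.01 over all genes. Gla, alpha-galactosidase A (Entrez gene 11605), ran from 62.2 to 76.1 in smoke at 2 weeks and read 108.8, 125.1, 126.1, 138.7 and 140.1 at 12 weeks, with forced air between 24.4 and 45.3. All 5 arrays lay above every other array, and the effect went from 0.59 to 1.58 (difference 0.99, SE 0.14, adjusted p = 2.17e-05). Lgmn, an asparaginyl protease, went from 0.29 to 0.96, Gusb, beta-glucuronidase, from 0.30 to 0.68 and Ctsa, the protective protein of sialidase, from 0.29 to 0.64.

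Many lysosome genes carry the element TCACGTGA, known as the core of the CLEAR element to which the factor TFEB binds. It was searched for in RefSeq promoter windows from 250 bases before to 50 bases after the start site, on the assembly GRCm38.p6 and on both strands. Of 170 genes with a built-up rise and a window, 4 held it (Ctsa, Ctsd, Gla and Ifi30), or 2.35%, beside 1.12% of all 27025 genes with a window. The latter include genes that were not tested here, so the shares come from unlike sets of genes, for this and the other motifs. The windows of Gla (chrX:134600956-134601255, minus strand) and Ctsa (chr2:164833523-164833822, plus strand, 1 of 2 windows of the gene) are shown because each holds the element in 2 places, in capitals, 5′ to 3′.
Gla: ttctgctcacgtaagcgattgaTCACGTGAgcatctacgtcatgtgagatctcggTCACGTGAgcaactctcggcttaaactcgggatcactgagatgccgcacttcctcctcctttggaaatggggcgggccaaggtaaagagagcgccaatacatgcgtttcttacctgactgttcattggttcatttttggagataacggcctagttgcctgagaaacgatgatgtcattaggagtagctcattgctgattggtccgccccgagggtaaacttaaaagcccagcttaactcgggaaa
Ctsa: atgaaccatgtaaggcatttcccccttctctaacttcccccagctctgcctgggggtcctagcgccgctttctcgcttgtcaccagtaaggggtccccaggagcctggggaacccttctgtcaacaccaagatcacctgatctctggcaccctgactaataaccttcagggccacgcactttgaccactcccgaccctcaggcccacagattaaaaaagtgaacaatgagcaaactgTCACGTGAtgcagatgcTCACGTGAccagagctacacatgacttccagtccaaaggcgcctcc
A match is a description of the letters and not a measured site. In Gla the first match begins 228 bases before the start site, and in Ctsa 13 bases before it.

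Of 16 tested interferon response genes 0 were called at 2 weeks and 10 rose at 12 weeks, where 12.5% of all genes rose. The difference was higher in 3 (1.48% of all genes), with a median of 0.33. Cxcl10, a chemokine for activated T cells (Entrez gene 15945), ran from 40.6 to 85.6 in smoke at 2 weeks and read 91.6, 148.4, 169.4, 195.7 and 219.9 at 12 weeks, with forced air between 30.1 and 53.3. Oas1a, a sensor of double-stranded RNA (Entrez gene 246730), ran from 89.7 to 107.8 and then read 109.1, 203.6, 220.9, 231.0 and 275.6. In both genes the smoke arrays at 12 weeks lay above all smoke arrays at 2 weeks and all forced air arrays at 12 weeks. The differences were 1.41 (SE 0.33, adjusted p = 0.0109) and 1.08 (SE 0.21, adjusted p = 0.00201), and Bst2, which tethers virus particles to cells, had 0.52. Cxcl9, named after its value was seen, had a difference of 1.52 and did not pass (SE 0.49, adjusted p = 0.0858).

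The interferon-stimulated response element was searched in the same windows as GAAA, any 2 bases and GAAA again. It was held by 11 of the 170 genes (6.47%), beside 3.99% of all genes with a window, tested here or not. Cxcl10 (chr5:92348840-92349139, minus strand) and Oas1a (chr5:120907476-120907775, minus strand) are shown as the interferon response genes of the largest called differences, with the element in capitals.
Cxcl10: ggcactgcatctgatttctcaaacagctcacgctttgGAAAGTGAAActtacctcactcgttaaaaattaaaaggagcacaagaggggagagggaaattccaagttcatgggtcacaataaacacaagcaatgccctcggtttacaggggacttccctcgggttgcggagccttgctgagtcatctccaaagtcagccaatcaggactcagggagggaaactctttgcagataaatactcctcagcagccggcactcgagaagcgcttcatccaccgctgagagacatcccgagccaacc
Oas1a: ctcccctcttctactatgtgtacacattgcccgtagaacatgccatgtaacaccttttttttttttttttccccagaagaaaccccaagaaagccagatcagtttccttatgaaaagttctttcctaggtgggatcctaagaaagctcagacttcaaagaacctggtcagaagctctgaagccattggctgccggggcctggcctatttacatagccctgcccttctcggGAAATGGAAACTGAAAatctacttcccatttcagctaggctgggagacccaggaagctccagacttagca
The element begins 213 bases before the start site in Cxcl10. Oas1a holds 2 matches that overlap in the stretch of capitals, the first of which begins 20 bases before the start site. The other motifs searched were the E-box CACGTG, which lies within TCACGTGA (14 of 170 genes, 8.24%, beside 8.09% of all), the AP-1 site TGAGTCA (14, beside 5.95%) and the PU.1 site GAGGAAGT (12, beside 3.69%). The Maf recognition element, TGCTGA and TCA around any base, can overlap the AP-1 site (2, beside 0.492%). A narrow form of the NF-kB site was searched, GGGA and TTTCC around any base (0, beside 0.466%). Other forms of that site were not searched, so the 0 does not show that NF-kB sites are absent.

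Matrix and protease genes built up in 7 of 23 cases, against 2.09% of all genes, with a median of 0.34, and here the forced air arm took part. Tnc, the matrix glycoprotein tenascin C (Entrez gene 21923), ran from 49.7 to 97.7 in forced air at 2 weeks and 31.6 to 64.7 at 12 weeks. In smoke it ran from 63.0 to 95.9 and then read 80.1, 97.1, 104.3, 105.6 and 112.5. Forced air fell by 0.60 while the smoke arm did not pass the test (0.31), and the difference was 0.90 (SE 0.20, adjusted p = 0.00613).

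Mmp19 had an effect of 0.41 at 2 weeks and 1.25 at 12 weeks, with forced air falling by 0.35 and smoke rising by 0.49. Mmp2, gelatinase A, had a difference of 0.65, and its forced air arm fell by 0.41. The call of Mmp2 held in 11 of the 23 fits that left out 1 array. Timp1, an inhibitor of these proteases, had a forced air arm that fell by 0.73 and a difference of 0.69 that was not called (SE 0.25, adjusted p = 0.131).

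Genes of smoke chemistry mostly kept below the threshold. Of 19 tested NRF2 and glutathione genes 2 were higher (1.48% of all genes), the heme oxygenase gene Hmox1 (0.64, adjusted p = 0.0345) and the aldo-keto reductase gene Akr1b8 (0.46, adjusted p = 0.0368). The median was 0.08. Hmox1 ran from 171.8 to 272.6 in smoke at 2 weeks and read 244.3, 274.1, 291.9, 315.2 and 328.3 at 12 weeks, so the smoke groups overlapped. The calls of Hmox1 and of Akr1b8 each held in 11 of the 23 fits that left out 1 array. The cystine transporter gene Slc7a11 had effects of 1.16 and 1.53 and a difference of 0.37 that was not called.

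Of 7 genes around the aryl hydrocarbon receptor Ahrr, its repressor, was the 1 gene called (0.52, SE 0.11, adjusted p = 0.00682). Ahrr ran from 7.9 to 11.5 in smoke at 2 weeks and read 16, 20.0, 21.3, 21.9 and 24.0 at 12 weeks, and was called present on 4 of 6 and 5 of 5 arrays. Its forced air signals were at most 8.8, below the 16 added to each signal. The call of Ahrr was lost when 1 was added in place of 16. The cytochrome P450 gene Cyp1b1 had effects of 0.75 and 1.20, with a difference of 0.44 that missed the threshold (adjusted p = 0.0989). Cyp1a1 was called at neither duration.

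Falls that built up were smaller than rises, with a median effect of -0.42 against 0.91 at 12 weeks. Bex2, a small adaptor protein gene of the X chromosome (Entrez gene 12069), ran from 165.0 to 207.3 in forced air and from 102.9 to 144.5 in smoke at 2 weeks. At 12 weeks forced air ran from 145.9 to 193.8 and smoke read 43.7, 52.1, 60.3, 60.3 and 68.0. Each smoke group lay below forced air and the later one below the earlier, and the effect went from -0.51 to -1.35 (difference -0.85, SE 0.16, adjusted p = 0.00115). Its relative Bex1 was not called at 2 weeks (-0.02) and fell by 0.92 at 12 weeks.

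Crispld2, a secreted protein that binds lipopolysaccharide (Entrez gene 78892), ran from 429.6 to 541.1 in forced air and from 444.6 to 553.2 in smoke at 2 weeks, which overlapped throughout. At 12 weeks forced air ran from 413.4 to 677.5 and smoke read 206.8, 222.9, 309.2, 362.2 and 367.1, below every other array. The difference was -0.84 (SE 0.17, adjusted p = 0.00334). Asgr1, a subunit of the asialoglycoprotein receptor, had fallen by 0.81 at 2 weeks and fell by 1.48 at 12 weeks, a difference of -0.67. Fabp1, a fatty acid binding protein gene, fell by 1.72 and by 2.13, and its difference of -0.42 was not called.

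Ndrg2, of a family related to hydrolases, and Cytl1, a secreted cytokine-like protein gene, were called at 12 but not at 2 weeks, with differences of -0.67 and -0.68. Chrdl1, a secreted antagonist of bone morphogenetic proteins, had -0.72. In each of these 3 genes all 5 smoke arrays lay below all forced air arrays at 12 weeks, and the smoke arm fell. Myh11, the myosin heavy chain of smooth muscle, was the 1 called gene of 13 smooth muscle and pericyte markers. It ran from 244.2 to 314.1 in smoke at 2 weeks and read 153.5, 176.2, 178.5, 219.9 and 232.4 at 12 weeks (difference -0.42, SE 0.11, adjusted p = 0.026). Of the 13 markers 0 had a difference above 0, and their median was -0.27. Falls with smoke were called in 1 of the 13 at 2 weeks (3.72% of all genes fell) and in 9 at 12 weeks (10.5%).

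In other lower genes forced air rose between the durations. Rai2 ran from 673.6 to 816.5 in forced air at 2 weeks and 833.5 to 1002 at 12 weeks, with no overlap, while its smoke arm did not pass the test (-0.28, adjusted p = 0.0988). Forced air also rose for the imprinted RNA gene Meg3 (0.37), the phosphatase gene Dusp26 (0.50), Shisa9 (0.42), the transcription factor gene Klf12 (0.37) and Acot1, a thioesterase of fatty acid metabolism (0.42), and their smoke arms were not called. Defb1, an epithelial defensin gene, rose by 0.65 in forced air and had a mean of 16.3 in smoke at both durations. Its call was lost in 15 of 23 fits that left out 1 array.

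Few effects shrank. A called effect that moved back towards 0 (or past it by less) with a called difference was found in 15 genes (0.0998% of those tested), 9 rises (0.0599%) and 6 falls (0.0399%). Asgr2, the other subunit of the asialoglycoprotein receptor (Entrez gene 11890), was the 1 gene of these that was still called at 12 weeks. It ran from 6.4 to 14.4 in forced air and from 34.1 to 63.9 in smoke at 2 weeks, and from 10.2 to 17.9 in forced air at 12 weeks, where smoke read 21.9, 24.9, 24.9, 25.5 and 39.3. Smoke lay above forced air at both durations, and the effect went from 1.23 to 0.54 (difference -0.69, SE 0.14, adjusted p = 0.0026). Asgr1 and Asgr2 thus had effects of opposite sign at both durations, and both differences were below 0.

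C5ar1, the receptor for the complement fragment C5a, fell by 0.48 at 2 weeks and had an effect of 0.01 at 12 weeks. It ran from 1003 to 1273 in forced air and from 658.9 to 898.8 in smoke at 2 weeks, without overlap. At 12 weeks forced air ran from 928.2 to 1180 and smoke read 940.0, 1013, 1017, 1030 and 1117, within that range. The smoke arm rose by 0.37 and the forced air arm was not called, and the difference was 0.50 (SE 0.11, adjusted p = 0.00683).

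In most other named genes that shrank, the forced air arm moved. Ndnf, a secreted factor known from neurons, ran from 597.7 to 886.7 in forced air at 2 weeks, and from 418.4 to 520.2 at 12 weeks. Smoke lay between 432.0 and 519.1 at both durations. Forced air fell by 0.53, so the fall with smoke at 2 weeks (-0.53) had no counterpart at 12 weeks (-0.02). The forced air arm was called as well in Lrrc61, Chrna9, Tcf23, Dab1 and Cyp51, an enzyme of cholesterol synthesis, and was not called in Fzd3, a Wnt receptor, and Igfbp2, a binding protein of insulin-like growth factors. The differences of Cyp51 and Igfbp2 were each called in 9 of the 23 fits that left out 1 array, and those of Lrrc61 and Tcf23 in 14. Apobec2 was the 1 gene that turned, with a called effect of 0.24 at 2 weeks and -0.23 at 12 weeks, and its forced air arm rose by 0.42.

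Of 3938 genes called at either duration, 314 (2.09% of all genes tested) had an effect that built up, 217 of them rises (1.44%) and 97 falls (0.645%). Built up means a called difference in the direction of a called effect at 12 weeks that exceeded the effect at 2 weeks. An effect was level where it was called at both durations in one direction and the 95% interval of the difference lay within a 1.5-fold change either way, which held for 623 genes (4.15%), 375 rises (2.5%) and 248 falls (1.65%). A further 2985 genes (19.9%) could not be placed, and 1 turned (0.00665%). Of 888 genes called at both durations in one direction 623 were level, 84 built up, 1 shrank and 180 could not be placed. The number built up ran from 165 without smoke 12-week replicate 5 to 525 without replicate 3, and the number level from 475 to 665 over the left-out arrays.

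The 10 strongest level effects were all rises. Slc39a2, a zinc transporter, had effects of 1.92 and 2.00, with a difference of 0.08 (95% interval -0.33 to 0.49). Mcoln3, a cation channel of lysosomes (Entrez gene 171166), ran from 229.1 to 299.4 in smoke at 2 weeks and read 234.6, 253.9, 256.8, 296.4 and 325.6 at 12 weeks, with forced air between 57.6 and 85.5. The smoke groups overlapped and each lay above all forced air arrays, with effects of 1.68 and 1.87 (95% interval of the difference -0.13 to 0.52). Atp6v0d2, a subunit of the proton pump of lysosomes, had effects of 1.42 and 1.63 (interval -0.07 to 0.50), and the lectin gene Cd33 of 1.11 and 1.13 (interval -0.26 to 0.30). The others were Spink5, F7, Pkib, Prune2, Ly75 and Itih1, with effects between 0.90 and 1.13. Mcoln3 and Atp6v0d2 were level while Gla built up, and the difference between these genes was not tested.

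**Figure D4:**
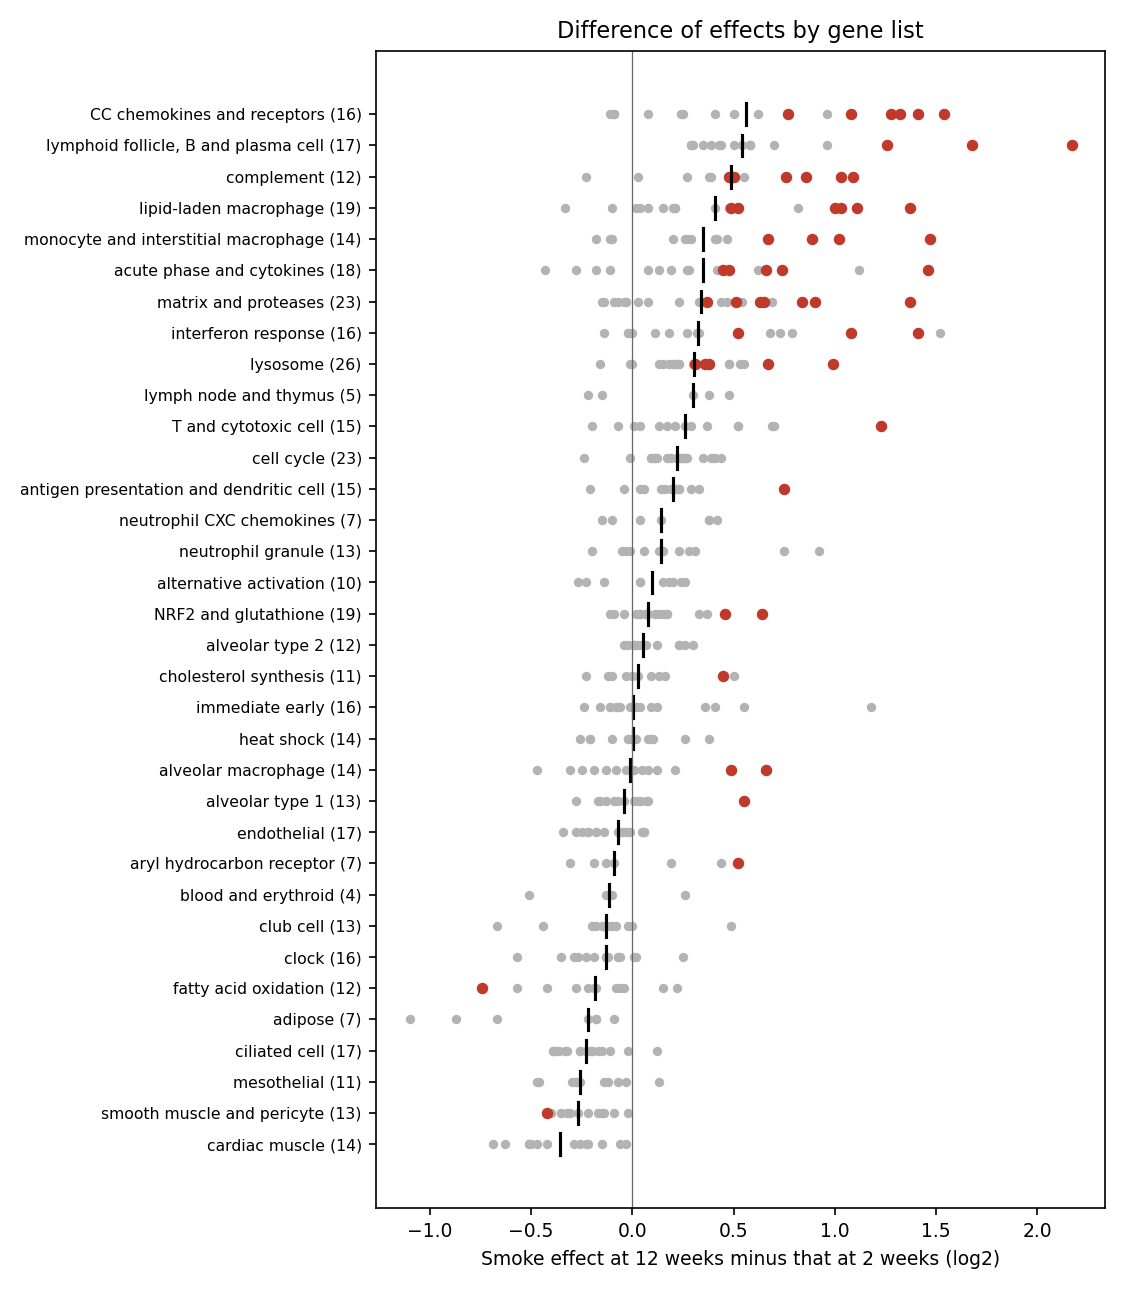
Each line is 1 of 34 gene lists with the number of genes tested, each point is 1 gene at its difference of effects in log2, and the bar marks the list's median. Red points are called genes. The lists of CC chemokines and of lymphoid follicles, B and plasma cells have the highest medians, 0.56 and 0.54, and cardiac muscle the lowest, -0.36.

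Several lists had no called member. None of 23 cell cycle genes was called, with a median of 0.22 and effects of 0.95 and 1.13 for the proliferation marker Mki67. There were also no calls among 16 clock genes (median -0.13), 14 heat shock genes (0.00), 16 immediate early genes (0.01), 12 alveolar type 2 markers (0.05) and 17 endothelial markers (-0.07). Endothelial markers fell in 4 cases at 2 weeks (3.72% of all genes fell) and 13 at 12 weeks (10.5%), so a larger count at 12 weeks went with no called difference. The costimulatory ligand gene Cd86 was the 1 called gene of 15 for antigen presentation (difference 0.75, SE 0.17, adjusted p = 0.00756, list median 0.20). In forced air Cd86 was called present on 1 of 6 arrays at 2 weeks and 0 of 6 at 12 weeks. There was 1 call each among 13 alveolar type 1 markers (Igfbp2, median -0.04), 11 cholesterol synthesis genes (Cyp51, 0.03) and 12 fatty acid oxidation genes (Acot1, -0.18). No gene was called among 13 club cell (-0.13), 7 adipose (-0.22), 4 blood (-0.11) and 5 lymph node and thymus (0.30) genes.

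Other resident cell lists lay below 0 with few or no calls. Of 17 ciliated cell markers none was called and 1 had a difference above 0, with a median of -0.23. The list's summed signal ran from 3668 to 4181 in smoke at 2 weeks and 3408 to 3814 at 12 weeks, and from 4002 to 4622 in forced air at 12 weeks. Of 11 mesothelial markers none was called (median -0.26), and of 14 cardiac muscle genes, known from the walls of mouse pulmonary veins, none was called and none lay above 0 (median -0.36). The summed cardiac signal ran from 4746 to 6761 in forced air and from 3062 to 5396 in smoke at 2 weeks, and from 3873 to 6963 and 2512 to 4512 at 12 weeks. How far the amount of such tissue in the lobe sample bears on the lower genes was not tested.

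At 24 weeks 203 of the 223 higher genes rose with smoke (11.1% of all genes rose). Of the 108 lower genes 67 fell (6.68% of all genes fell). The 24-week arrays had no part in the difference itself but entered the detection filter and the shared spread of its test. At 12 weeks 217 of the 223 had already risen and 99 of the 108 had fallen. A call at 24 weeks thus does not test a difference from 2 weeks. The median effect at 24 weeks was 0.66 for the higher and -0.26 for the lower genes, between the values at 2 and 12 weeks in both cases. Among the genes whose rise built up, 202 of 217 rose at 24 weeks, and among those whose fall built up 64 of 97 fell. Cxcl13 ran from 604.6 to 1012 in smoke and 155.8 to 529.2 in forced air at 24 weeks, an effect of 1.54. Jchain was not called at 24 weeks (0.48, adjusted p = 0.105), with forced air between 934.4 and 2571. Crispld2 fell by 0.82, much as at 12 weeks.

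**Figure D5:**
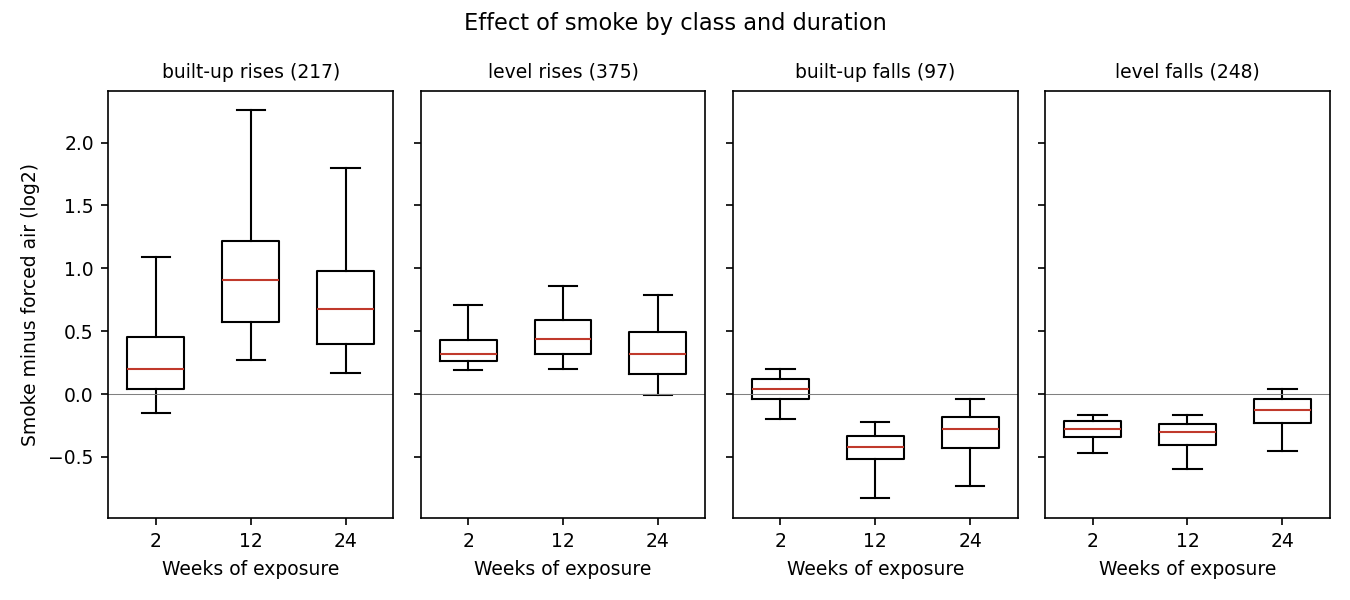
Boxes show the effect of smoke (log2 smoke minus forced air) at 2, 12 and 24 weeks for rises and falls that built up or stayed level, with the median in red, the box from the 25th to the 75th percentile of genes and whiskers from the 5th to the 95th. The 2- and 12-week effects defined the classes and the 24-week effects did not. Built-up rises have medians of 0.20, 0.91 and 0.68, and level rises 0.32, 0.44 and 0.32.

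Single arrays moved the counts. Smoke 12-week replicate 3 was the lowest of its 5 in 151 of the 223 higher genes (67.7%) and the highest in 44 of the 108 lower genes. Without it 396 genes were higher and 173 lower, and without smoke 12-week replicate 5 the higher genes came to 0.872% of those tested and the lower to 41 genes. The higher count was 143 without forced air 2-week replicate 4 and 352 without replicate 6. The lower count was 48 without smoke 12-week replicate 1, 63 without smoke 2-week replicate 2, 56 without replicate 3 of that group, and 69 without forced air 12-week replicate 4. Among forced air arrays at 2 weeks, leaving out replicate 1 gave 68, replicate 2 gave 62 and replicate 4 gave 53. In each of these fits all 331 genes kept the sign of their difference, which the arrays left in had also helped to choose.

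The sample titles end in a number of unstated meaning. It was cut into 3 ranges for the fits below, and each group spans at least 2 of them. The cuts are not given by the labels and do not lie at the widest gaps between the numbers. Whether the ranges match any batch of the study is thus not known. With the ranges as a block 359 genes were higher and 205 lower. Within the middle range alone 108 of the 223 higher genes and 14 of the 108 lower genes stayed called. The highest range holds 2 forced air arrays of 2 weeks and 1 array of each other group compared. No calls are thus given for it. The median differences of the 223 and 108 genes were 0.67 and -0.44 in the middle and 0.61 and -0.48 in the highest range. These arrays had helped to choose the genes, so the medians give no support to the calls. The lowest range holds no forced air array of 2 weeks, so it gives no value.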

How the data were processed

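MAS5 was the authors' tool, per the submitters' processing notes, and its signal intensity was deposited on a linear scale. Its version is not given in the sources used here. Each array had a 2% trimmed mean of 150. MAS5 also gave the deposited detection p-value. Per the labels' protocols, samples were randomized before extraction and 50 ng of total RNA was amplified per sample.

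From the deposited signal, log2(signal + 16) was computed, so the change of dim genes is understated. A probe set was kept if its detection p was under 0.05 in 50% or more of any group's arrays (35615 of 45101). A single gene symbol was given for 34945 probe sets, several for 932 and none for 9160, and 64 were controls. Of them 34741 matched the RefSeq table of GRCm38.p6 by Entrez ID. Each of 15030 genes is its brightest kept probe set, and 7329 had more than 1. All 53 arrays entered 1 limma fit (R 4.3.3, limma 3.58.1, eBayes with trend) with 1 mean per group. Tests were two-sided, with Benjamini-Hochberg adjustment over all genes within a comparison, and the fit was tested on simulated data. The number of arrays limits the precision of each mean. Tables and figures were made with matplotlib 3.10.9, numpy 2.4.6 and pandas 2.3.3 under Python 3.11.15.

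The genes, the 34 lists (479 of 542 entries tested) and the tests were chosen with earlier results of these data known. The 479 entries are 463 different genes, since lists share members. The counts of such lists are thus not separate, as with Mmp12 in the lipid-laden and the matrix and protease lists. Named genes are the 20 largest positive and 20 largest negative called differences without clone names, up to 4 called genes per list, 10 level, up to 5 turned and up to 10 shrunken effects, and a panel of 20. They came to 100, of which 77 were called. For 43 of them other probe sets exist, of which 0 were called in the opposite direction. Alternatives were the normalization, the value added, the detection filter, the arrays in the fit, all probe sets, the variance trend, array weights, the 3′/5′ ratios, the title numbers, a minimum difference and leaving out each array. Analyses within title ranges were chosen after seeing the data.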

Additional observations from a re-analysis of the deposited data

Results flagged for a closer look

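The effect of smoke differed between 12 and 2 weeks in 331 genes by the test of the difference itself.

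Single arrays lay far from the others of their group by Dixon's test in 29 of 400 sets of 1 named gene in 1 group (7.25%, where chance gives about 5%). Smoke 12-week replicate 3 accounts for 7 of them, with the lowest signal of its group for Ighm (555.0), Igf1 (264.8), Ccl12 (149.8), Msr1 (241.5), Fcgr1 (119.3) and Bst2 (245.5) and the highest for Asgr2 (39.3). Each of these 7 signals lies on the side of the 2-week values. Smoke 12-week replicate 1 was low for Slc7a11 (28.4). Among smoke arrays at 2 weeks, replicate 4 stood apart for Ms4a7 (116.2) and replicate 5 for Dab1 (20.5).

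Forced air arrays at 2 weeks stood apart for Igkv19-93 (140.6), Igk-V21 (335.4), Igkv9-120 (232.5) and C3ar1 (65.1), all in replicate 2 and all high, and for Ccl2 in replicate 3 (19.8), Acod1 in replicate 4 (16.6) and Bst2 (231.9) and Sftpc (4918) in replicate 6. At 12 weeks forced air replicate 1 stood apart for Ccl12 (29.2), Ly75 (345.4) and Sftpc (4504), and replicate 2 for Defa39 (14.3), Lrrc61 (124.9), Meg3 (83.0), F7 (70.0) and Timp1 (22.7). Replicate 4 stood apart for Dusp26 (24.7) and Tnc (64.7), and replicate 5 for Oas1a (56.7).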

How the results depend on the processing

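The 223 higher and 108 lower genes kept the sign of their difference under every alternative run. The arrays in these runs had also helped to choose the genes, so this adds no support to the calls. Fitting only the groups compared kept the calls of 186 higher and 63 lower genes. Using all kept probe sets kept 181 and 68, and the title number as covariate 196 and 76. Quantile normalization kept 221 and 93, and control ratios as covariates kept all. Adding 1 to each signal in place of 16 kept 177 and 88, and Ahrr, C1qa, Itgax, Igfbp2 and Defb1 were among those that lost their call there. Folr2, Acot1, Lrrc61, Fzd3 and Chrna9 were among those that lost their call with only the groups compared. No paired analysis was possible because the labels give no replicate numbers that groups share. As percent of genes tested, the higher, lower, built-up and shrunken genes moved from 1.48, 0.719, 2.09 and 0.0998 to 3.79, 2.2, 5.16 and 0.459 with array weights, to 2.39, 1.36, 3.48 and 0.193 with the title ranges as a block, and to 2.47, 1.25, 3.29 and 0.226 without the 2 arrays of a Gapdh ratio above 2. Adding the control ratios as covariates gave 2.63 higher, 1.9 lower, 4.05 built up and 1.98 level in place of 4.15. Quantile normalization gave 2.48 higher and 3.15 built up. A minimum difference of 1 left 0.233 higher and built up and 0 lower, shrunken and turned. Fewer arrays entered within title range 2 (0.892 higher, 0.133 lower, 1.01 built up, 0.00665 shrunken, 1.27 level) and range 3 (0.479 higher, 0.153 lower, 0.472 built up, 0.206 level). Turned effects went from 0.00665 to 0.0399 with array weights and within range 3, to 0.0133 with the block, to 0.0266 without high ratios and to 0 with ratio covariates. Leaving out each array gave 0.872 to 2.63 higher, 0.273 to 1.15 lower, 1.1 to 3.49 built up, 0.0266 to 0.193 shrunken and 0 to 0.0266 turned. Of 77 named called genes 43 stayed called in all 23 of these fits. The causes were not tested.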
